A study of Mus musculus with 2 samples.

Results

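Plasma cells were taken from single-cell RNA profiles of immune cells recovered from inflamed mouse colon. A cell was counted as a plasma cell when it held 20 or more unique molecular identifiers (UMIs, each marking 1 captured RNA molecule) of Jchain and 5 or more of Mzb1 and Xbp1 together. It also had to hold no UMI of the T cell receptor complex genes Cd3d, Cd3e and Cd3g and fewer than 10 of the neutrophil genes S100a8 and S100a9. The rule found 798 cells among the 14080 that passed the quality filter, which asked for at least 200 detected genes and at most 20% mitochondrial UMIs. The cells were thus chosen by their measured transcripts. Of these cells, 549 came from the library labelled CKO and 249 from the library labelled WT.

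Each genotype label has 1 library, made by 10x 3′ capture of immune cells that had infiltrated the colon; the strain was C57BL/6 and the setting experimental colitis in both. The study's title names RPA1 (a subunit of the replication protein A complex, which coats single-stranded DNA) and T cell necroptosis. The sources used here do not give the promoter that drives deletion in the CKO mice, the deleted exons, the colitis agent, the age of the mice or how many were pooled into a library. Labels therefore stand for libraries below, and with 1 library a group no difference between CKO and WT has a replicate check, a test or a p-value. All intervals are exact 95% intervals that cover counting error only, and differences between the mice, preparations and sequencing runs of the libraries cannot be told apart from the genotype.

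Plasma cells are the end stage of the B lineage and secrete antibody at a high rate. In the gut wall most secrete IgA, which the joining chain encoded by Jchain links into dimers that the epithelium carries into the lumen. The transcription factors IRF4, BLIMP-1 (gene Prdm1) and XBP1 drive the change from B cell to plasma cell; BLIMP-1 shuts down Pax5 and other B cell genes, and XBP1 enlarges the endoplasmic reticulum (ER), where antibody chains are folded and assembled. The load on the ER is handled by the unfolded protein response, whose branches run through XBP1, ATF6 and PERK.

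Promoters of ER folding genes are known for a DNA element through which this response acts. The ER stress response element, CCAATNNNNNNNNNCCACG, is bound by NF-Y and by ATF6 or XBP1, and it was searched on both strands from 250 bases before to 50 bases after the RefSeq transcript start (GRCm38.p6). It was found in 39 of 32851 promoters, or 0.119%. Among the ER chaperone and folding genes listed below, 13 of 16 matched a promoter and 5 of those 13 genes held it (Calr, Canx, Hsp90b1, Hspa5 and Pdia6), against 37 of all 27025 genes, or 0.137%. The element was first described in promoters of this family, so that count describes the family and is no independent evidence. The promoters of 3 genes that hold it are shown because their transcripts are among those that set plasma cells apart, with the element in capitals (its reverse complement where the element lies on the opposite strand).
Hspa5, chr2:34771840-34772139, plus strand: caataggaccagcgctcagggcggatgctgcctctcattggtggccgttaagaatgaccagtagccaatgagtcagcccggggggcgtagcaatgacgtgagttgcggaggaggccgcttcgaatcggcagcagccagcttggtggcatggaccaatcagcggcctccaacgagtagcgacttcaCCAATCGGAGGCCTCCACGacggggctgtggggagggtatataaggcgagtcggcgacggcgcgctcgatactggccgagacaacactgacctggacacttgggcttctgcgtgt
Hsp90b1, chr10:86705395-86705694, minus strand: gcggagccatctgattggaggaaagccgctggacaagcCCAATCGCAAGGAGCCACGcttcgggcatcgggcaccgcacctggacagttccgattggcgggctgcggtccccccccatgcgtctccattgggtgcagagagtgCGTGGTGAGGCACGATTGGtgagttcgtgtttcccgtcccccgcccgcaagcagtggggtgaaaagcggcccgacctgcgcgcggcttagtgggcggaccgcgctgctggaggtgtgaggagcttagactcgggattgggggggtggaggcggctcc
Derl3, chr10:75893148-75893447, plus strand: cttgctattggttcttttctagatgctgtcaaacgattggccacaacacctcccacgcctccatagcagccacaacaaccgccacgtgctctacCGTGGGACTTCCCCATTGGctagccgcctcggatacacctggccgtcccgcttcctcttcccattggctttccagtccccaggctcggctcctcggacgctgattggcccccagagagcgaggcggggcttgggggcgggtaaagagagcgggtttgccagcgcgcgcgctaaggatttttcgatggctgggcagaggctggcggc
Hspa5 encodes the chaperone BiP, and its element begins at base -65 from the start. Hsp90b1 encodes the chaperone GRP94 and holds the element at -212 on the printed strand and at -107 on the opposite strand. Derl3 encodes a channel protein of ER-associated degradation and holds the element at -156 on the opposite strand. The element was also held by 2 of 14 genes of the XBP1 target and degradation list (Dnajc3 and Syvn1) and by 2 of 16 plasma cell identity genes (Creld2 and Derl3), and by none of the 15 PERK, 19 translocon and 21 ER-to-Golgi transport genes that matched. The shorter motif TGACGTGG, the core of an XBP1-binding element that shares the letters CGTGG with the reverse complement of the first motif, was found in 222 promoters (0.676%), or 193 genes (0.714%). It was held by 4 of the 21 ER-to-Golgi transport genes (Copb1, Copb2, Kdelr3 and Sec24d), 2 of the 16 plasma cell identity genes (Pou2af1 and Txndc5) and 1 of the 13 chaperone genes (Txndc11), and by none of the 14 XBP1 target and degradation, 15 PERK and 19 translocon genes. No match to either motif was seen in the same window of Jchain or Sdc1.

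The CKO library held 11155 filtered cells with a median of 3362 UMIs and the WT library 2925 filtered cells with a median of 4135 UMIs, from 57740083 and 18627050 UMIs in all barcodes. Plasma cells were much deeper than the average cell. In CKO they held 1176 UMIs at the lowest, 16841 at the median and 65939 at the highest, and in WT 870, 20602 and 64150. The libraries had 6 barcodes in common, none of which was a plasma cell in both. Scrublet marked 9 plasma cells of CKO and 1 of WT as doublets. It marked only 0.0342% of all WT cells, against 2.34% expected from the number of cells, and had therefore not worked there. In CKO it marked 1.91% of all cells, against 8.92% expected, so its calls fell short there too.

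Plasma cells made up 4.92% of filtered cells in CKO (549 of 11155, interval 4.53 to 5.34%) and 8.51% in WT (249 of 2925, interval 7.53 to 9.58%). The share depends on how many other cells each library caught. Neutrophils, taken as cells with 20 or more UMIs of S100a8 and S100a9, were 15.9% of cells in CKO and 4.85% in WT. Among B lineage cells alone, defined as plasma cells together with cells that hold B cell surface markers such as Ms4a1 and Cd79a and little Jchain (3484 in CKO and 843 in WT, called B cells below), the share was 13.6% in CKO (12.6 to 14.7%) and 22.8% in WT (20.3 to 25.4%). It was lower in CKO over both denominators, but B cells had to hold fewer than 5 UMIs of Jchain. Jchain outside plasma cells differed between the libraries, with a UMI in 44.5% of CKO and 63.3% of WT T cells. How many B cells of each library that limit left out of the denominator was not tested.

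The exclusion of cells with a Cd3 UMI acted unevenly on the libraries. Of the cells that passed the Jchain, Mzb1 and Xbp1 thresholds, 25 of 604 held a Cd3 UMI in CKO (4.14%, 2.70 to 6.05%) and 72 of 330 in WT (21.8%, 17.5 to 26.7%). Sdc1, the plasma cell surface proteoglycan syndecan-1, was seen in 19 of those 25 CKO cells and in 59 of those 72 WT cells. The WT library thus lost a larger part of its Jchain-rich cells to this step. T cells were 6.12% of filtered cells in CKO and 11.6% in WT.

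**Figure D1:**
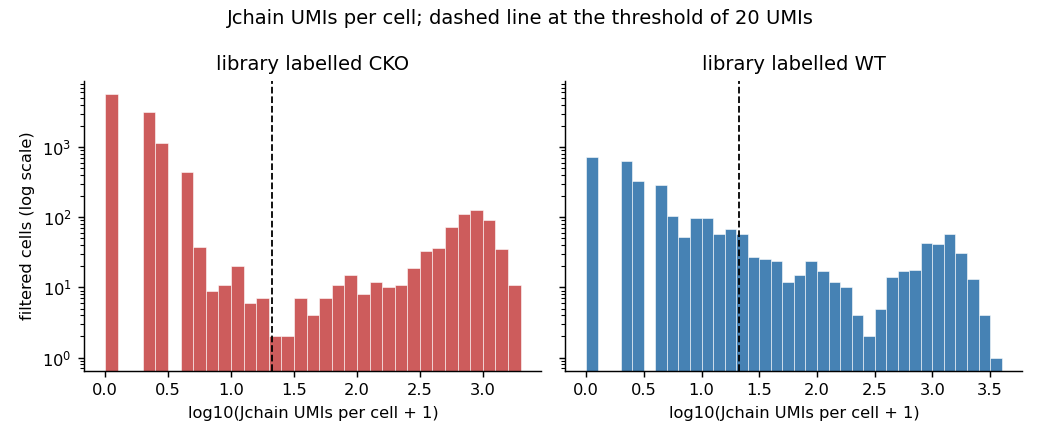
Distribution of Jchain UMIs over all filtered cells of the CKO library (left) and the WT library (right); the horizontal axis is log10 of the UMIs plus 1, the vertical axis is the number of cells on a log scale, and the dashed line marks 20 UMIs. Few CKO cells lie near the line, whereas WT cells run on across it; an upper mode lies far to its right in both, and the median over the plasma cells is 738 UMIs in CKO and 990 in WT.

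The values that chose the cells are a description. Jchain stood at 23 UMIs in the lowest plasma cell of CKO, 738 at the median and 1859 in the highest, and in WT at 20, 990 and 3189. The Mzb1 median, for a chaperone of antibody assembly, was 32 UMIs in CKO and 17 in WT, and the Xbp1 median was 12 in CKO and 14 in WT. The threshold fell in a sparse range of Jchain in CKO but not in WT, where filtered cells of all kinds ran on across it. Among cells near it, 2 CKO cells and 16 WT cells that met the other conditions held 10 to 19 UMIs of Jchain and lay just outside, and 6 CKO cells and 19 WT cells held 20 to 49 and lay just inside.

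The label was checked on genes outside the rule, beside B cells. Levels are CPM, the UMIs of a gene per 1000000 non-immunoglobulin UMIs, summed over the cells of a library; immunoglobulin genes were left out of that total because they fill close to 42% of a plasma cell's UMIs. Sdc1 was at 319 CPM in CKO plasma cells and 7.66 in CKO B cells, and at 348 CPM in WT plasma cells and 8.72 in WT B cells. A UMI of Sdc1 was present in 479 of 549 CKO plasma cells (87.2%) and 211 of 249 WT plasma cells (84.7%). Every cell was also thinned to 2000 non-immunoglobulin UMIs, which left out 11 CKO and 12 WT plasma cells. The share with Sdc1 was then 48.5% in CKO and 50.2% in WT, against 2.39% and 3.34% in T cells of CKO and WT. T cells held Sdc1 at 23.1 CPM in CKO and 32.5 in WT, above B cells. Prdm1 was at 166 CPM in CKO and 147 in WT plasma cells. Pax5, which keeps B cells B cells, was at 10.8 CPM in CKO plasma cells against 283 in CKO B cells, and at 25.1 in WT plasma cells against 286 in WT B cells. Irf4, which activated B cells also use, did not separate the cells: it was at 88.0 CPM in plasma cells and 84.8 in B cells of CKO, and at 92.3 and 94.5 CPM in those of WT. Cd79a, a part of the B cell receptor, was lower than in B cells but not absent, at 484 CPM in plasma cells and 1379 in B cells of CKO and at 616 and 1579 CPM in those of WT. Cd74, the MHC class II invariant chain, was at 3003 CPM in plasma cells and 6720 in B cells of CKO, and at 3220 and 7721 CPM in those of WT. Sdc1 and Prdm1 were thus far above B cells and Pax5 far below in both libraries.

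A weaker end of the population was visible in each library. Plasma cells with 20 or more but fewer than 200 UMIs of Jchain numbered 47 in CKO and 44 in WT, and those with 200 or more numbered 502 in CKO and 205 in WT. In the low group, a UMI of the B cell surface gene Ms4a1 (CD20) was seen in 15 of 47 CKO cells and 22 of 44 WT cells, and Sdc1 in 48.9% of CKO cells and 36.4% of WT cells. In the high group, Ms4a1 was seen in 44 of 502 CKO cells and 22 of 205 WT cells, and Sdc1 in 90.8% of CKO cells and 95.1% of WT cells. The low group was a larger part of the WT plasma cells, and the CKO over WT ratios of named genes and lists that moved with it are given below with and without it.

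Transcripts that separated plasma cells from B cells are a description too, since the rules for both kinds of cell drew that line. Of genes with 20 or more UMIs, 22.7% were higher by 1.5-fold in plasma cells and 41% lower in CKO (11141 genes), and 24.5% were higher and 33.6% lower in WT (9617 genes). Outside the rule's genes, the largest differences held in both libraries included the gut homing receptor Ccr10, at 335 CPM in CKO plasma cells against 0.14 in CKO B cells and at 305 CPM in WT plasma cells against 0.47 in WT B cells. Tnfrsf17, which encodes the survival receptor BCMA, was at 206 CPM in CKO plasma cells against 0.36 in CKO B cells, and at 276 CPM in WT plasma cells against 1.18 in WT B cells. Cd28, a co-stimulatory receptor better known from T cells and also carried by plasma cells, was at 324 CPM in CKO plasma cells against 2.89 in CKO B cells and at 316 CPM in WT plasma cells against 2.36 in WT B cells.

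Genes of secretion and others of less obvious function filled the rest of that group. Fkbp11, an ER prolyl isomerase, was at 448 CPM in CKO plasma cells against 2.31 in CKO B cells and at 350 CPM in WT plasma cells against 2.83 in WT B cells. Txndc5, a protein disulfide isomerase, was at 1801 CPM in CKO plasma cells against 32.5 in CKO B cells and at 1580 CPM in WT plasma cells against 38.7 in WT B cells. Cacna1s, the pore subunit of the skeletal muscle calcium channel, was at 500 CPM in CKO plasma cells against 4.70 in CKO B cells and at 436 CPM in WT plasma cells against 4.95 in WT B cells. Prg2, known as the eosinophil major basic protein, was at 162 CPM in CKO plasma cells against 0.51 in CKO B cells, and at 138 CPM in WT plasma cells against 0.47 in WT B cells. The other genes of the 15 named by the same rule were Pls1, a (agouti), Tmem176a, Tmem176b, Derl3, Selenom, Glipr1 and Creb3l2.

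Gene lists for the secretory apparatus stood above B cells in both libraries. All 18 XBP1 target and ER-associated degradation genes were higher by 1.5-fold in plasma cells, with a median log2 ratio over B cells of 2.36 in CKO and 2.42 in WT. The ER chaperone median was 2.21 in CKO and 2.26 in WT (14 of 16 and 15 of 16 genes higher), and the median of the translocon and glycosylation genes was 2.25 in CKO and 2.31 in WT (22 and 23 of 24 higher). For the genes of the PERK branch, which slows translation and turns on amino acid supply, the median was 0.55 in CKO and 1.05 in WT (8 of 16 and 10 of 15 higher). All genes together had medians of -0.35 in CKO and -0.18 in WT. B cell identity genes had a median of -4.2 in CKO and -3.0 in WT (15 of 16 lower in both), and MHC class II genes, which present antigen to T cells, had a median of -3.37 in CKO and -2.77 in WT (10 of 10 lower in both).

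Antibody transcripts were next read from the constant region genes. These are on all-UMI scales, and their levels in T cells, which do not transcribe them, give the background. Immunoglobulin genes took 42.0% of the summed UMIs of CKO plasma cells and 42.6% of those of WT plasma cells, against 0.142% in CKO T cells and 0.318% in WT T cells. Per cell the share was 1.02% at the lowest, 45.3% at the median and 66.8% at the highest in CKO, and 0.45%, 46.2% and 70.9% in WT. The summed shares of the libraries differed by less than a percentage point.

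IgA dominated. A cell was given the heavy chain class whose constant gene held at least 10 UMIs and at least 2 times the next class. IgA cells made up 521 of 548 classed cells in CKO (95.1%, 92.9 to 96.7%) and 233 of 244 in WT (95.5%, 92.1 to 97.7%). IgM cells numbered 14 in CKO and 3 in WT, IgG cells 13 in CKO and 8 in WT, and no IgD or IgE cell was found. Among IgG cells the leading gene was Ighg2b in 10 of 13 CKO cells, and Ighg1 in 0 of 13 CKO cells and 4 of 8 WT cells. These counts of IgG cells are small. The rule asked for Jchain, so plasma cells with little Jchain are missing from these shares. IgG was the class of 11 of 47 CKO cells under 200 Jchain UMIs and of 2 of 502 with 200 or more. In WT it was the class of 3 of 44 and 5 of 205. Just outside, at 10 to 19 UMIs, 7 of 16 WT cells were IgA and 5 IgG, and both CKO cells were IgM. The part of the rule in the IgA share was not tested.

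Igha, the IgA heavy chain constant gene (chromosome 12, 113254830 to 113260236, minus strand, GRCm38), was at 123927 CPM of all UMIs in CKO plasma cells and 117499 in WT plasma cells. In T cells Igha stood at 647 CPM in CKO and 1181 in WT. Igkc, the kappa light chain constant gene, was at 270011 CPM in CKO plasma cells and 266153 in WT plasma cells. Kappa was the leading light chain in 508 of 546 CKO cells (93.0%) and 229 of 246 WT cells (93.1%), with overlapping intervals of 90.57 to 95.03% in CKO and 89.2 to 95.9% in WT.

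**Figure D2:**
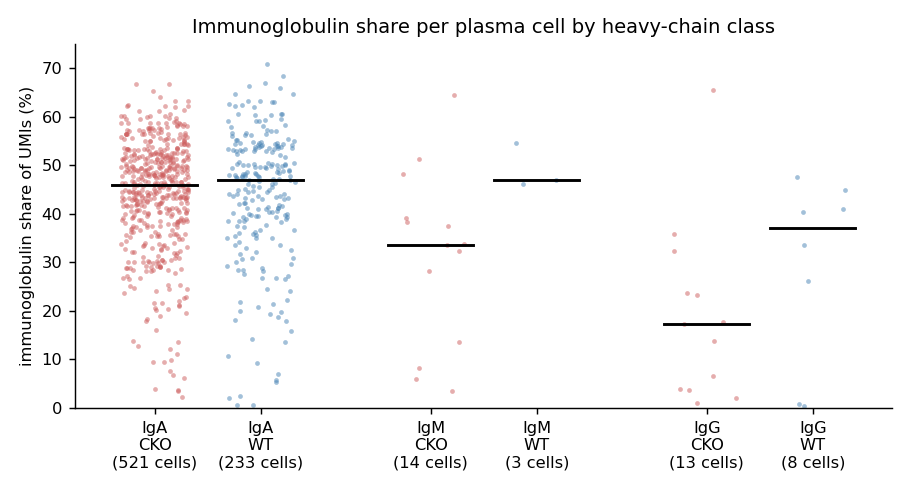
Share of UMIs from immunoglobulin genes in each plasma cell, in percent, by heavy chain class, with CKO left of WT; points are cells and black bars are medians. IgA cells sit at medians of 46.0% in CKO and 47.0% in WT, and IgG cells lower, at 17.3% in CKO and 37.0% in WT.

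The heavy chain classes differed in more than the constant gene. IgA cells held 10 or more UMIs of MHC class II genes in 17.9% of CKO cells (14.7 to 21.4%) and 23.2% of WT cells (17.9 to 29.1%), against 9 of 13 IgG cells in CKO and 5 of 8 in WT. Fewer than 200 UMIs of Jchain were held by 30 of 521 IgA cells and 11 of 13 IgG cells in CKO, and by 37 of 233 IgA cells and 3 of 8 IgG cells in WT. Dividing cells, with 2 or more UMIs of the proliferation genes Mki67 and Top2a, were 69 of 521 IgA cells, 6 of 14 IgM cells and 7 of 13 IgG cells in CKO. In WT they were 36 of 233 IgA cells, 0 of 3 IgM cells and 4 of 8 IgG cells. In both libraries a larger share of IgG than of IgA cells was under 200 Jchain UMIs, and a larger share was dividing. Jchain chose the cells, so its values are a description. In WT the Jchain intervals overlapped, at 8.52 to 75.5% of IgG and 11.4 to 21.2% of IgA cells. Those for division also overlapped in WT, at 15.7 to 84.3% of IgG and 11.1 to 20.7% of IgA cells. In CKO the intervals for division were 25.1 to 80.8% of IgG and 10.5 to 16.5% of IgA cells. No such reading is made for Jchain in CKO, because it chose the cells. All these intervals count cells of 1 library and say nothing of the spread between mice.

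Within each library, IgA cells were set against IgM and IgG cells together (521 against 27 cells in CKO, 233 against 11 in WT). Of genes with 20 or more UMIs, 19.6% were higher by 1.5-fold and 33.1% lower in CKO (8832 genes), and 24.8% were higher and 27.3% lower in WT (7457 genes), with medians of -0.24 and -0.10 on the log2 scale in CKO and WT. Ccr9, the receptor for the small intestinal chemokine CCL25, gave 284 UMIs in IgA cells and 1 UMI in IgM and IgG cells of CKO (log2 ratio 4.74, interval 2.25 to 10.0), and 108 UMIs and 0 UMIs in WT. Ccr10 was at 359 CPM in IgA cells and 72.3 in IgM and IgG cells of CKO (log2 ratio 2.31), and at 330 and 42.9 CPM in WT (2.94). Both gut homing chemokine receptors were thus higher on the IgA side in each library. They were also lower in plasma cells under 200 Jchain UMIs, which were a larger share of IgG than of IgA cells. Ccr10 was at 365 CPM at 200 or more and 90.1 below it in CKO, and at 336 and 120 in WT. Ccr9 was at 56.9 and 13.4 CPM in CKO and at 43.8 and 4.90 in WT. The part of Jchain level in the class difference was not tested.

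The integrin chains split. Itgb7, the beta 7 chain of the gut homing integrin, was higher in IgA cells, with log2 ratios of 1.23 in CKO and 1.16 in WT, while its partner Itga4 gave -0.05 in CKO and 0.05 in WT. Tnfrsf17 was higher in IgA cells by 1.47 in CKO and 2.27 in WT on the log2 scale, and Cd274, which encodes the inhibitory ligand PD-L1, by 1.12 in CKO and 1.64 in WT. Other genes named by size, with at most 3 UMIs in the IgM and IgG cells of either library, were Crb3, Itih5, Rnase2b, Cxcl1, Osbpl3, Enah and Ramp3. In WT the log2 intervals of Crb3, Itih5, Cxcl1, Enah and Ramp3 reached below 0, so their direction there is not settled. On the opposite side stood genes of DNA replication and mitosis: the cell cycle list was lower in IgA cells for 23 of 23 genes in CKO and 19 of 23 in WT, with medians of -2.28 in CKO and -1.36 in WT. Pclaf, a partner of the replication clamp PCNA, was at 69.7 CPM in IgA cells and 493.5 in IgM and IgG cells of CKO, and at 79.1 and 465.9 CPM in WT. The part that the dividing IgM and IgG cells had in these differences was not tested.

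Variable region genes vary from cell to cell because each B cell builds its variable region from its own V segment and passes the joined gene on to its daughters. A V gene was called where it held at least 3 UMIs and 2 times the next V gene. A heavy chain V gene was called in 504 CKO cells (91.8%) and 197 WT cells (79.1%). It was called in 0 of 683 CKO and 0 of 338 WT T cells. The T cells of each library held only 7 heavy V UMIs in all, so that 0 does not check the calls in plasma cells. The V genes form families of near-identical copies whose reads the counting could move between members, and the joined sequence itself was not read, so a call names a V gene and not a clone. Distinct heavy V genes numbered 67 in CKO and 52 in WT. Lambda V genes were also called in 63.4% of kappa cells of CKO and 59.0% of those of WT, at medians of 5 and 4 UMIs, so only the leading light chain V gene was used for pairs.

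Repeated V pairs were more frequent in the CKO library. A heavy and a light chain V gene could be paired in 480 CKO and 191 WT cells, and these cells fell into 186 pairs in CKO and 117 in WT. Drawn down to the 191 cells of WT, the CKO cells would hold 99.3 distinct pairs on expectation, against 117 in WT. Pairs seen in 5 or more cells took 247 CKO cells (51.5%, 20 pairs) and 43 WT cells (22.5%, 5 pairs), a count that depends on the number of cells. Pairs seen once took 25.4% of CKO cells and 46.1% of WT cells, shares that also depend on the number of cells. The inverse Simpson index, the number of equally frequent pairs that would give the same concentration, was 37.2 in CKO and 56.4 in WT.

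The leading pair of CKO was Ighv7-3 with Igkv1-110. Ighv7-3 lies on chromosome 12 at 114153180 to 114153644 on the minus strand (GRCm38, annotated as an immunoglobulin V gene), and Igkv1-110 on chromosome 6 at 68270485 to 68271267 on the plus strand. The pair was held by 57 of 480 CKO cells (11.9%, 9.12 to 15.1%), where 12.2 cells would hold it if heavy and light V genes were paired at random in the same frequencies. It was held by 0 of 191 WT cells, which allows a share of up to 1.57%. Of the 57 cells, 54 were IgA and 3 IgM, 2 were dividing, and the median Jchain was 878 UMIs. The next pair of CKO was Ighv1-76 with Igkv8-24, in 29 cells against 0 WT cells. In WT the most frequent pair, Ighv1-81 with Igkv1-117, was held by 12 of 191 WT cells (6.28%) and by 8 of 480 CKO cells (1.67%). The libraries had 11 pairs in common, which were 5.91% of the pairs of CKO and 9.40% of those of WT.

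**Figure D3:**
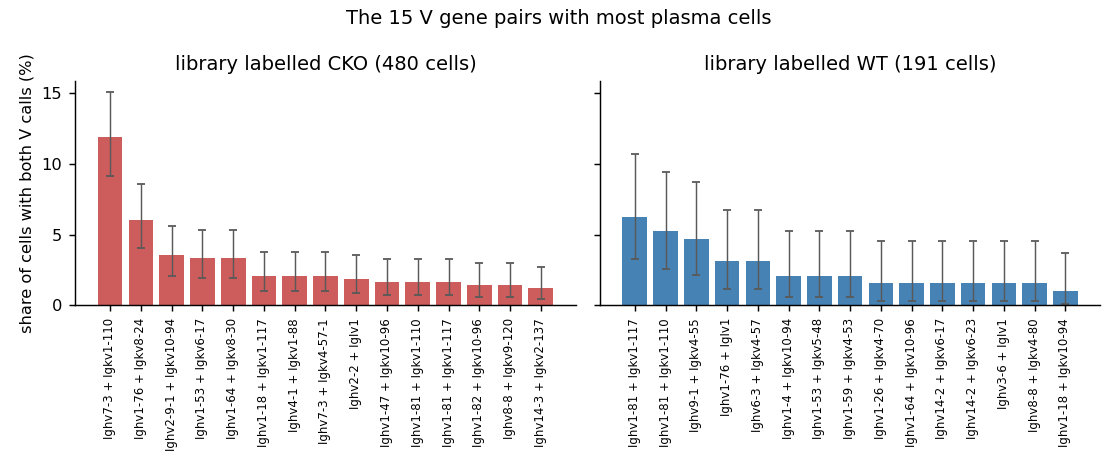
The 15 most frequent heavy and light chain V pairs of the CKO library (left) and the WT library (right), as a percentage of the cells with both V genes called; bars are shares and lines are exact 95% binomial intervals. Ighv7-3 with Igkv1-110 leads CKO at 11.9%, and Ighv1-81 with Igkv1-117 leads WT at 6.28%.

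The non-immunoglobulin transcripts of CKO and WT plasma cells were then compared. Of 7831 genes with 50 or more UMIs over both libraries, 274 (3.5%) were higher by 1.5-fold in CKO and 659 (8.42%) lower, and the median gene stood at a log2 ratio of -0.12. With edgeR's trimmed mean (TMM) scaling the median gene moved to 0.03 and the split to 472 higher and 344 lower, so the excess of lower genes depends on the scaling and ratios near 0 are given no direction. Gm42418, a gene model over a ribosomal RNA repeat, took 734990 UMIs in CKO and 257448 in WT. With it and Jchain left out of the total, the split was 335 higher and 521 lower.

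Slpi, a secreted inhibitor of neutrophil serine proteases, had the most UMIs of the genes named by size. It was at 877 CPM in CKO (4794 UMIs in 339 cells) and 2457 CPM in WT (6945 UMIs in 195 cells), a log2 ratio of -1.49 (-1.54 to -1.43). The cell with most Slpi held 166 of the UMIs in CKO and 926 in WT; over all settings tried the ratio ran from -1.59 to -1.21, and it was -1.57 among cells with 200 or more Jchain UMIs. Klf2, a transcription factor that keeps lymphocytes quiescent and controls their egress, was at 98.6 CPM in CKO and 227 in WT (log2 ratio -1.20). Klf2 was also lower in the other CKO lymphocytes, at 231 CPM in CKO B cells and 573 in WT B cells, and at 154 in CKO T cells and 334 in WT T cells. Neutrophils gave 228 CPM in CKO and 354 in WT, so the lower Klf2 of CKO was seen in each of the cell classes read.

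Procr, the endothelial protein C receptor, was at 26.9 CPM in CKO (85 cells) and 63.3 in WT (68 cells), a log2 ratio of -1.24, and at 2.6 and 1.2 CPM in the B cells of CKO and WT. Fdps and Cyp51, enzymes of sterol synthesis, were at 58.2 and 31.3 CPM in CKO and at 122 and 65.8 CPM in WT, with log2 ratios of -1.07 each. Both were also lower in the other CKO lymphocytes. Fdps was at 15.5 CPM in CKO and 29.2 in WT B cells, and at 26.6 and 32.5 in T cells. Cyp51 was at 27.8 CPM in CKO and 44.8 in WT B cells, and at 49.7 and 82.3 in T cells. In neutrophils Fdps went the other way, at 7.21 CPM in CKO and 4.98 in WT. On the higher side, Pon3, a lactonase of the paraoxonase family, was carried by many plasma cells and near 0 in B cells. It was at 96.8 CPM in CKO (268 cells) and 45.6 in WT (76 cells), a log2 ratio of 1.08 (0.80 to 1.37), and at 1.08 and 0 CPM in the B cells of CKO and WT. Ly6k, a surface protein of the Ly6 family, was at 78.1 CPM in 51 CKO cells and 24.4 CPM in 14 WT cells, so that few cells carried it.

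Several of the largest ratios belonged to genes of other cell types. Lyz2, the macrophage lysozyme, was at 64.8 CPM in CKO plasma cells and 3.18 in WT plasma cells (log2 ratio 4.35), at 256 and 57.7 CPM in B cells of CKO and WT, and at 1380 and 255 CPM in their T cells. The cytokine Il1b was at 198 CPM in CKO plasma cells and 23 in WT plasma cells (3.11), and at 437 and 80.6 CPM in B cells of CKO and WT. Cxcl2, Tyrobp, S100a8, Ccl5, Fcer1g and S100a9 were also higher in CKO plasma cells, by log2 ratios between 1.36 and 2.75. Unlike Lyz2 and Il1b, Fcer1g was higher in plasma cells than in B cells of both libraries. It was at 240 CPM in plasma cells and 108 in B cells of CKO, and at 86.7 and 29.7 CPM in those of WT. A UMI of Fcer1g was present in 273 CKO and 78 WT plasma cells. Among plasma cells with 200 or more Jchain UMIs, the log2 ratios were 3.51 for Il1b, 3.50 for Tyrobp, 2.70 for S100a8 and 2.25 for S100a9. The 10 neutrophil markers, led by S100a9, on which the rule set a limit, summed to 214 CPM in CKO plasma cells and 66.5 in WT plasma cells, and to 339 and 70.5 CPM in the B cells of CKO and WT. Neutrophils were also the larger share of the CKO library, and their part in these ratios was not tested.

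Single cells set some other ratios. The antimicrobial lectin Reg3b gave 369 UMIs in CKO, 278 of them in 1 cell, and 1 UMI in WT. The matrix proteoglycan Dcn gave 161 UMIs in WT, all in 1 cell, and 62 in CKO. The chemokine Cxcl10 was at 41.5 CPM in CKO and 175 CPM in WT, where 301 of its 496 UMIs came from 1 cell. Gzma, a cytotoxic granule protease, had 96 of its 345 CKO UMIs in 1 cell. The remaining genes named by size were Rgs1, Rgs2 and Cd2, with log2 ratios of -1.34, -1.29 and -1.06. That of Rgs2 was -0.50 among cells with 200 or more Jchain UMIs. Rgs2 was also lower in CKO B cells (164 CPM against 249 in WT) and T cells (415 against 554). Cd2 was lower in CKO B cells (135 against 152) and T cells (163 against 271). Rgs1 was lower in CKO B cells (61.1 against 92.2) and higher in CKO T cells (973 against 791).

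B cell genes were lower in CKO plasma cells, and that difference lay in the low Jchain group. Beside a background of 5.89% of genes higher and 12.2% lower (9692 genes with 20 or more UMIs), 1 of 16 B cell identity genes was higher and 9 were lower, with a median log2 ratio of -0.71. Ms4a1 was at 29.8 CPM in CKO and 113 in WT (log2 ratio -1.92). Among plasma cells with 200 or more UMIs of Jchain, the list median was 0.08 and the Ms4a1 ratio -0.43. The cut uses the gene that chose the cells and was set after the data were seen, so it cannot place the difference. In WT 239 of the 318 Ms4a1 UMIs came from the low Jchain cells, and in CKO 45 of 163. The MHC class II list had a median of -0.47 (0 higher and 2 lower of 10), which was 0.11 with the low Jchain cells left out. Dek, a chromatin protein, had a log2 ratio of -1.61 over all plasma cells and 0.02 without the low Jchain cells.

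Genes of the germinal centre and of class switching gave the lowest list median, -0.91, with 0 higher and 10 lower of 15. Rgs13, a regulator of chemokine receptor signalling in germinal centre B cells, gave 0 UMIs in CKO and 75 in WT, of which 70 were in 10 low Jchain cells. Gcsam gave 1 UMI in CKO and 30 in WT (log2 ratio -5.86, interval -11.2 to -3.27). The list median was -0.42 without the low Jchain cells and -0.28 without dividing cells.

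The secretory apparatus gave small ratios. None of the 18 XBP1 target and degradation genes, 16 chaperones, 24 translocon and glycosylation genes or 24 ER-to-Golgi transport genes differed by 1.5-fold in either direction. Their list medians were 0.05, -0.05, 0.04 and 0.02, in that order, beside -0.12 for all genes. Among cells with 200 or more Jchain UMIs the XBP1 list median was -0.06 and the chaperone median -0.21. Hspa5, whose promoter is printed above, was at 3558 CPM in CKO and 3003 in WT (log2 ratio 0.24, 0.21 to 0.28), and Hsp90b1 at 5104 in CKO and 5176 in WT (-0.02). Herpud1, an adaptor of ER-associated degradation, was at 932 CPM in CKO and 695 in WT (0.42), the largest ratio in the XBP1 list. Those intervals are narrow because the genes hold many UMIs, and say nothing of the spread between mice.

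The PERK and ATF4 list had 2 higher and 2 lower of 16, with a median of -0.11. Atf4 itself was at 402 CPM in CKO and 443 in WT (log2 ratio -0.14), and Slc3a2, the heavy chain of an amino acid transporter, at 663 in CKO and 788 in WT (-0.25). Plasma cell identity genes had 2 higher and 1 lower of 20 and a median of 0.06, with Tent5c, a poly(A) polymerase that stabilises antibody mRNA, at 739 CPM in CKO and 807 in WT. Oxidative phosphorylation genes had none of 25 past 1.5-fold (median -0.11), and class I presentation genes none of 13 (0.07). Glycolysis and hypoxia genes had 1 higher and 1 lower of 18 (median -0.23), and interferon-stimulated genes 4 higher and 4 lower of 31 (-0.11). For Ifi27l2a, the levels were 3550 CPM in CKO and 4011 in WT, and for Ly6a 2767 in CKO and 2807 in WT.

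**Figure D4:**
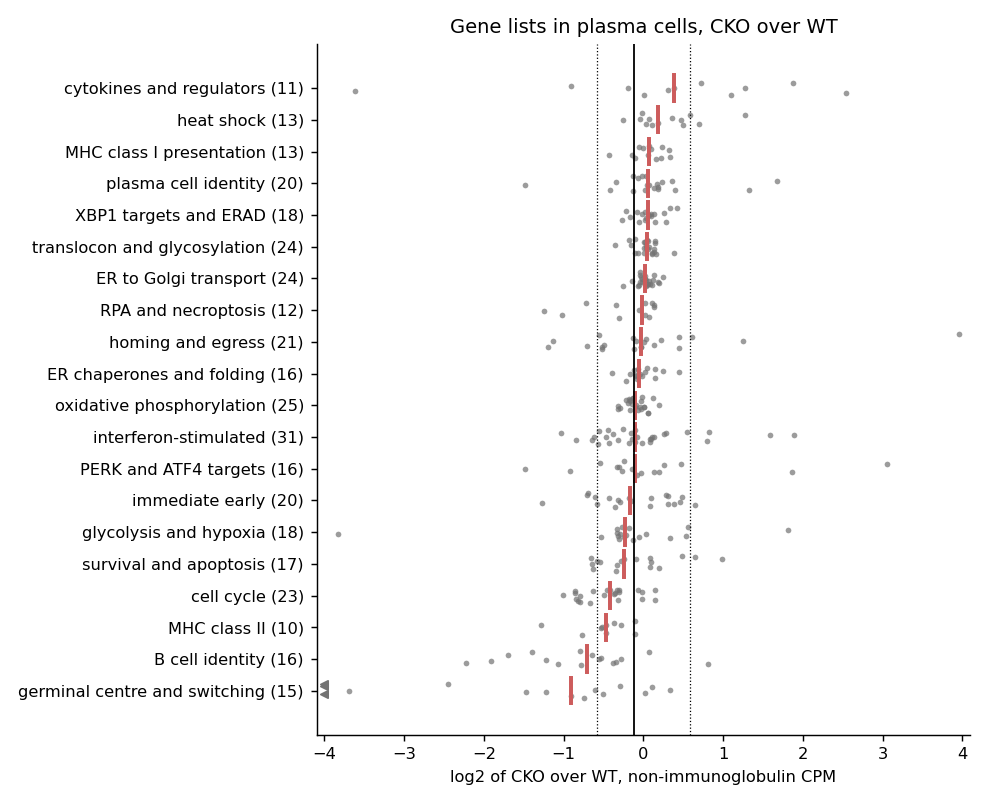
Log2 ratio of CKO over WT in plasma cells for each gene of 20 lists; points are genes with 20 or more UMIs over both libraries (number in brackets), triangles lie beyond -4 (1 of them with 0 UMIs in CKO), red bars are list medians, the black line is the median of all genes at -0.12 and dotted lines mark 1.5-fold. The secretory lists sit inside the dotted lines, and the germinal centre list has the lowest median, at -0.91.

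Survival and homing genes were mixed. Of 17 survival and apoptosis genes, 2 were higher and 4 lower (median -0.25). Mcl1, the BCL2 family member that plasma cells need, was at 441 CPM in CKO and 470 in WT (log2 ratio -0.09), and Bcl2l11, which encodes the killer protein BIM, was at 202 in CKO and 295 in WT (-0.55). Of 21 homing, adhesion and egress genes, 3 were higher and 3 lower (median -0.04). Ccr10 was at 335 CPM in CKO and 305 in WT (0.14), and Itga4 at 250 in CKO and 215 in WT (0.22). Cd69, an activation and retention receptor, was at 232 CPM in CKO and 327 in WT (-0.49).

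Cytokine and regulator genes gave the highest list median, 0.38, with 5 higher and 2 lower of 11 read; with each cell weighted alike the median was 0.03. Ctla4, an inhibitory receptor mostly known from T cells, was at 223 CPM in CKO (1221 UMIs in 368 cells) and 136 in WT (383 UMIs in 145 cells), a log2 ratio of 0.72 (0.55 to 0.89). Cd274 was at 286 CPM in both CKO and WT (0.00, -0.12 to 0.13). Tnf gave 45 UMIs in CKO and 4 in WT, and Il6 3 UMIs in CKO and 19 in WT, so both rest on few molecules. Il10 was at 30.4 CPM in 73 CKO cells and 23.4 CPM in 37 WT cells. T cell markers in plasma cells summed to 8.24 CPM in CKO and 19.8 in WT, with 6 and 5 of the 10 markers at 0, of which Cd3d, Cd3e and Cd3g are at 0 by the rule. The part of T cell transcripts in the Ctla4 ratio was not tested.

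Stress and activation genes gave mostly small ratios. Among heat shock genes 3 of 13 were higher and none lower (median 0.19), with Hspa1a at 27.5 CPM in 31 CKO cells and 11.3 CPM in 16 WT cells (log2 ratio 1.28) and Hspa8 at 667 CPM in CKO and 523 in WT (0.35). Among immediate early genes 1 of 20 was higher and 4 lower (median -0.17), with Fos at 353 CPM in CKO and 540 in WT (-0.61) and Junb at 264 in CKO and 434 in WT (-0.71). These genes also respond to tissue dissociation, whose part was not tested.

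Replication protein A and the necroptosis genes were read because the study's title names them. Of 12 genes read, 0 were higher and 3 lower (median -0.02). Rpa1 gave 126 UMIs in CKO and 62 in WT, or 23.1 CPM in CKO and 21.9 in WT (log2 ratio 0.07, -0.38 to 0.53). A 3′ tag of Rpa1 does not check a deletion whose exons are not given. Rpa2 was at 19.4 CPM in CKO and 19.1 in WT (0.02), and Rpa3, the smallest subunit, at 14.1 in CKO and 28.7 in WT (-1.02). The necroptosis kinase genes were sparse in plasma cells: Ripk1 was at 37.3 CPM in CKO and 38.9 in WT (-0.06), and Ripk3 gave 13 UMIs in CKO and 16 in WT. Zbp1, a nucleic acid sensor upstream of RIPK3, was at 252 CPM in CKO and 233 in WT (0.11).

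Dividing cells, often called plasmablasts, made up 83 of 549 plasma cells in CKO (15.1%, 12.2 to 18.4%) and 43 of 249 in WT (17.3%, 12.8 to 22.5%). At 2000 non-immunoglobulin UMIs a cell, a UMI of Mki67 or Top2a was seen in 12.1% of CKO and 11.8% of WT plasma cells, in 4.40% of CKO and 6.21% of WT B cells, and in 15.4% of CKO and 6.69% of WT T cells. The intervals of the 2 plasma cell shares overlap. The cell cycle list as a whole was lower in CKO plasma cells for 9 of 23 genes and higher for none, with a median of -0.42. Hmgb2, a chromatin protein of cycling cells, was at 407 CPM in CKO and 705.5 in WT (log2 ratio -0.79). With the Jchain minimum raised to 50 UMIs, which left out 6 CKO and 19 WT cells, the list median was 0.04; with the minimum at 200 UMIs it was -0.34, without dividing cells -0.64, and with no S100a8 or S100a9 UMI allowed -2.22.

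Dividing plasma cells carried less antibody transcript in both libraries. Their immunoglobulin share had a median of 29.0% against 47.1% in the other plasma cells of CKO, and of 33.7% against 47.7% in WT. Their Jchain median was 536 UMIs against 775.5 in CKO and 819 against 1009 in WT, although they held more UMIs in all (20258 against 16548 in CKO, 25218 against 19573 in WT). The B cell identity list had medians over the other plasma cells of -0.25 in CKO and 1.41 in WT, a difference that was not tested. At least 10 MHC class II UMIs were held by 43.4% of dividing and 15.9% of other plasma cells in CKO, and by 44.2% and 21.4% in WT, and IgA was the class of 83.1% of dividing and 97.0% of other plasma cells in CKO and of 83.7% and 95.6% in WT.

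Against the other plasma cells, 30% of genes were higher by 1.5-fold in dividing cells and 13.1% lower in CKO, and 30.7% were higher and 13.7% lower in WT, and the median gene stood at 0.22 in both. The cell cycle list (medians 5.20 in CKO and 5.39 in WT) follows from how the cells were chosen. The replication protein A genes were also higher: Rpa1 was at 54.6 CPM in dividing and 12.5 in other plasma cells of CKO, and at 47.3 and 11.5 CPM in WT. Rpa2 gave log2 ratios of 2.35 in CKO and 2.53 in WT, and Rpa3 2.81 in CKO and 2.53 in WT. Dividing cells held 75 of the 126 Rpa1 UMIs of CKO plasma cells and 39 of the 62 of WT plasma cells, while Ripk1 gave ratios of -0.09 in CKO and -0.34 in WT.

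Metabolic genes differed between dividing and other plasma cells in the same direction in both libraries. The glycolysis and hypoxia list had a median of 0.93 in CKO (10 of 15 higher) and 0.59 in WT (8 of 15 higher). Ldha, lactate dehydrogenase A, was at 250 CPM in dividing and 67.2 in other plasma cells of CKO, and at 224 and 104 CPM in WT. Gapdh was at 1314 CPM in dividing and 482 in other plasma cells of CKO, and at 1307 and 614 CPM in WT. The PERK and ATF4 list went the opposite way, with medians of -0.61 in CKO (8 of 15 lower) and -0.78 in WT (8 of 13 lower), but not for every member. Slc3a2 was at 332 CPM in dividing and 774 in other plasma cells of CKO, and at 433 and 935 CPM in WT, whereas Psat1, an enzyme of serine synthesis, was at 72.0 and 18.6 CPM in CKO and at 55.8 and 16.5 CPM in WT.

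Sdc1, Tnfrsf17 and Slpi were lower in the dividing cells. The plasma cell identity list had medians of -0.35 in CKO (8 of 20 lower) and -0.64 in WT (11 of 20 lower). Sdc1 was at 213 CPM in dividing and 355 in other plasma cells of CKO, and at 228 and 398 CPM in WT, and Tnfrsf17 gave log2 ratios of -1.0 in CKO and -0.94 in WT. Slpi was at 404 CPM in dividing and 1036 in other plasma cells of CKO, and at 1147 and 2997 CPM in WT, so the lower Slpi of CKO held among dividing and among other plasma cells.

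**Figure D5:**
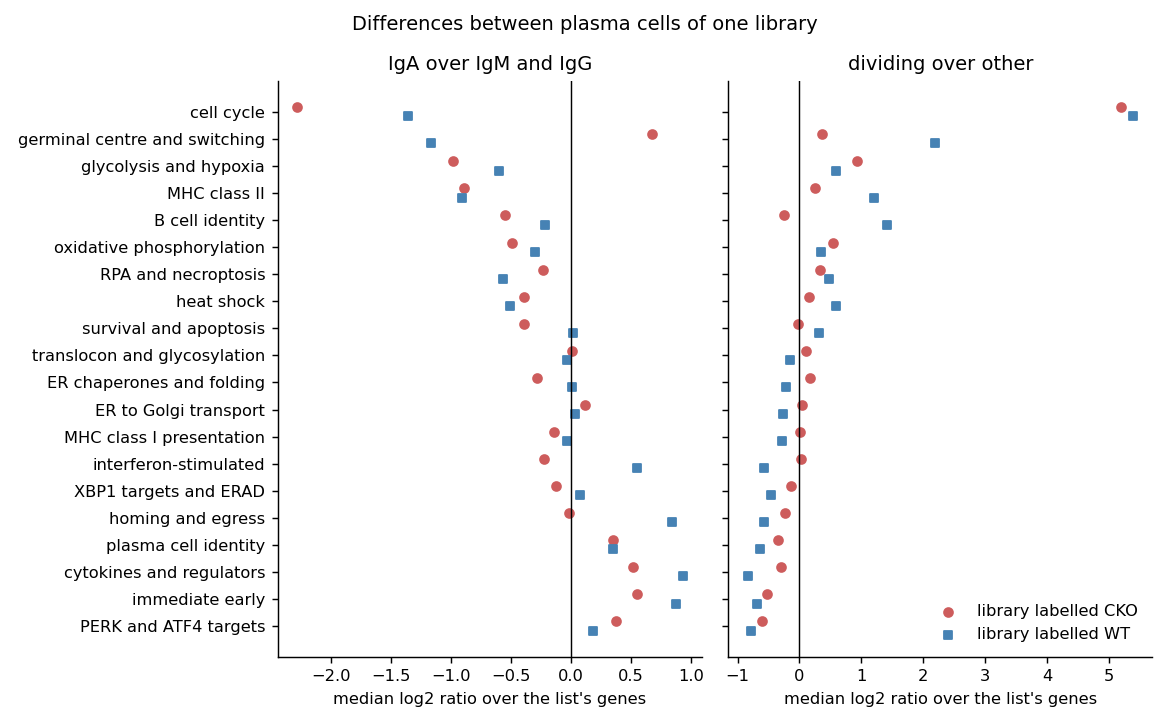
List medians of the log2 ratio within a library, for IgA over IgM and IgG plasma cells (left) and dividing over other plasma cells (right); circles are CKO and squares are WT. The cell cycle list lies at -2.28 in CKO and -1.36 in WT on the left, and glycolysis and hypoxia at 0.93 in CKO and 0.59 in WT on the right.

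Markers of other cell types were read as whole lists. Epcam, an epithelial adhesion gene, was at 185 CPM in CKO plasma cells (382 cells) and 172 in WT plasma cells (164 cells), against 10.4 CPM in CKO B cells and 7.07 in WT B cells, and it led the epithelial list, which summed to 223 CPM in CKO and 182 in WT. The monocyte and macrophage list summed to 304 CPM in CKO and 124 in WT plasma cells, led by Apoe, of whose 923 UMIs in CKO 443 were in 1 cell. None of its 10 markers was at 0 in CKO plasma cells, and Csf1r, C1qa, Fcgr1 and Ms4a7 were at 0 in WT plasma cells. In B cells that list summed to 1402 CPM in CKO and 1122 in WT. The fibroblast and endothelial list summed to 58.4 CPM in CKO and 134 in WT, where Dcn in the 1 cell named above led it. Dendritic cell markers summed to 21.4 CPM in CKO and 20.2 in WT, natural killer and innate lymphoid markers to 20 in CKO and 9.91 in WT, and mast cell markers to 7.50 in CKO and 18.0 in WT.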

How the data were processed

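Members and gene lists were chosen with earlier results of these data known. The authors deposited raw UMI counts per gene and cell barcode for 2 libraries, 1 for each genotype label. The counts were made with Cell Ranger on build mm10: version 5.0.0 per the submitters' processing notes, which also list Seurat 3.2.3, and version 6.0.1 per the file headers. The sources used here do not say whether doublets were removed before deposit.

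UMIs were summed over the plasma cells of each library and were scaled per 1000000 non-immunoglobulin UMIs (5464410 in CKO, 2826470 in WT). Immunoglobulin genes were scaled per 1000000 UMIs of all genes. Log2 ratios carry exact conditional Poisson intervals and shares carry exact Clopper-Pearson intervals, all at 95% and for counting error only. With 1 library a group no test was run; a gene is counted as higher or lower past 1.5-fold, and a count of 0 is read as allowing up to 3 UMIs. B cells had 5 or more UMIs of B cell surface markers (Cd79a, Cd79b and Ms4a1 among them), fewer than 5 of Jchain and none of Cd3; T cells had 3 or more Cd3 UMIs and none of B cell markers such as Cd79a and Ms4a1. A few genes that the rules or lists hold are not reported here.

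In CKO over WT, 12 genes at each end of the log2 ratios were named, out of genes with 50 or more UMIs over both libraries and 50 or more CPM in the higher one. Immunoglobulin, T cell receptor, ribosomal, mitochondrial, sex-linked and unnamed genes were left out of that choice. For each of the 20 lists (373 symbols, all matched), up to 4 members with most UMIs and up to 2 with the largest ratio were named. For plasma over B cells the 15 largest, and for IgA over other classes the 8 largest each way, were named. Other named genes were chosen after their values were seen.

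Scripts were tested on simulated data. Software was Python 3.11.15, numpy 2.4.6, scipy 1.17.1, pandas 2.3.3, scanpy 1.11.5 (Scrublet), R 4.3.3 and edgeR 4.0.16, the last used for TMM factors alone. Gene positions are from GENCODE on GRCm38 and promoter sequences from RefSeq on GRCm38.p6.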

Additional observations from a re-analysis of the deposited data

Results flagged for a closer look

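The median of the germinal centre and class switching list lay on opposite sides of 0 in the libraries. For IgA over IgM and IgG plasma cells its median log2 ratio was 0.67 in CKO (10 genes read, 5 higher and 4 lower by 1.5-fold) and -1.16 in WT (13 genes read, 1 higher and 9 lower). The difference between the libraries was not tested, and the medians are over different sets of genes. Members that were lower in IgA cells of both libraries included Ung, an enzyme of uracil repair (log2 ratio -2.78 in CKO and -2.40 in WT), Mef2b (-2.14 in CKO and -1.32 in WT), Apex1 (-1.80 in CKO and -0.74 in WT) and Runx3 (-0.78 in CKO and -1.16 in WT). Tgfbr1 lay above 0 in both (1.52 in CKO and 0.24 in WT), and Rora gave 64 UMIs in IgA cells and 2 in IgM and IgG cells of CKO and 25 and 0 in those of WT. Basp1, a membrane-associated signalling protein, was at 238 CPM in IgA cells and 55.3 in IgM and IgG cells of CKO, and at 318 and 466 CPM in WT. S1pr2, a receptor that confines B cells to the germinal centre, was at 13.0 CPM in IgA cells and 6.38 in IgM and IgG cells of CKO, and at 22.9 and 85.8 CPM in those of WT. The death receptor gene Fas was at 25.8 CPM in IgA cells and 4.25 in IgM and IgG cells of CKO, and at 43.8 and 61.3 CPM in those of WT. In the IgM and IgG cells of CKO, S1pr2 gave 3 UMIs (log2 ratio 1.03, interval -0.58 to 3.34) and Fas 2 (2.6, interval 0.72 to 5.66). The comparison rests on 27 IgM and IgG cells in CKO and 11 in WT.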

How the results depend on the processing

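No paired analysis was possible because each group has 1 library; for the same reason no replicate could be left out. The settings changed the scaling, the gene minimum, the cell rule or the weight of single cells, and the minimum of 200 Jchain UMIs, the removal of dividing cells and the scaling without Jchain and Gm42418 were added after the data were seen. Genes higher and lower in CKO by 1.5-fold numbered 274 and 659 as reported, 472 and 344 with TMM scaling, 55 and 148 among genes with 200 or more UMIs, and 1253 and 2520 among genes with at least 1 UMI in each library. They numbered 173 and 956 where no S100a8 or S100a9 UMI was allowed (147 CKO and 174 WT cells), 306 and 434 with 50 or more Jchain UMIs, and 358 and 883 with each cell weighted alike. The plasma cell share was 1.32% in CKO and 5.95% in WT with no S100a8 or S100a9 UMI, and 4.50% in CKO and 7.01% in WT with 200 or more Jchain UMIs, below WT each time. The immunoglobulin share was 46.2% in CKO with no S100a8 or S100a9 UMI, 45.0% in WT with 50 or more Jchain UMIs, and 44.4% in CKO and 45.8% in WT with 200 or more, where the IgA share of CKO was 97.8%. Directions turned for the medians of B cell identity (0.0783 at 200 or more Jchain UMIs) and MHC class II (0.11 at 200 or more). They also turned for the medians of cell cycle (0.04 at 50 or more) and heat shock (-0.14 with no S100a8 or S100a9 UMI). Among genes they turned for Dek (0.0624 at 50 or more and 0.0220 at 200 or more Jchain UMIs). S100a9 (-0.12 with each cell weighted alike) and Gzma (-0.38 with no S100a8 or S100a9 UMI) turned as well. The cause was not tested. The list medians reported between -0.11 and 0.07 each changed sign under at least 1 setting. Pon3 ran from 0.97 to 1.23, Slpi from -1.59 to -1.21, Procr from -1.48 to -1.09, Klf2 from -1.52 to -1.05 and Fdps from -1.08 to -0.92. S100a8 and S100a9 have no value where the rule sets them to 0. Depth limits genes under 20 UMIs, which were not read.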

Other observations

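Beyond the lists, the genes that varied most from plasma cell to plasma cell were ranked by variance over mean, with cells thinned to 1000 UMIs (549 CKO and 248 WT cells). The first 10 outside immunoglobulin, ribosomal and mitochondrial genes were Apoe, Gm42418, Malat1, Ly6c2, Crip1, Il1b, Mgp, Jchain, Cxcl2 and Hspa5 in CKO. In WT they were Gm42418, Il22, Ly6c2, Mgp, Malat1, Jchain, Slpi, Tmsb4x, Mcpt4 and Ccl2, with 5 in common (50% of each). Ly6c2, a surface protein of the Ly6 family induced by interferon, was present in 93.3% of CKO and 92.8% of WT plasma cells, so its spread was one of level. Il22, a cytokine that acts on epithelium, gave 102 UMIs in 11 WT plasma cells, 75 of them in 1 cell. Apoe and Mgp rested on few cells, with 443 of 923 Apoe UMIs and 118 of 120 Mgp UMIs of CKO in 1 cell each.

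Plasma cells of the IgM class held more Jchain in WT than in CKO on very few cells, with medians of 505.5 UMIs in 14 CKO cells and 1701 in 3 WT cells. IgG cells had medians of 143 UMIs in CKO and 408 in WT, and IgA cells 761 in CKO and 1010 in WT. Jchain chose the cells, so these values are a description.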
